A study of Mus musculus with 34 samples.

Results

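The genes described are 10 chaperones and co-chaperones that fold the glucocorticoid receptor or hold it ready for hormone: Hsp90aa1, Hsp90ab1, Hspa8, Dnaja1, Dnajb1, Bag1, Stip1, Ptges3, Fkbp4 and Fkbp5. They were chosen by name from the 55341 gene names of the count tables, with earlier results of these data known. All 10 were counted in all 34 libraries and passed the filter on low counts, which kept 16140 genes in the first set of libraries and 17535 in the second.

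RNA was sequenced from mouse mammary adenocarcinoma cells derived from the 3617 line, which lack their own glucocorticoid receptor and stably express a GFP-tagged mouse receptor instead. That receptor was wild type (WT), carried Y551A with or without a further change named Dim, or carried D647V with or without one named Tetra. Y551A and D647V are substitutions in the ligand-binding domain, and the labels do not spell out Dim and Tetra. The lines are called Y551A, Y551A-Dim, D647V and D647V-Tetra here. Cells spent at least 24 h in medium with 10% charcoal-stripped serum and 5 µg/ml tetracycline before 2 h of exposure to the synthetic glucocorticoid dexamethasone (Dex) at 100 nM or to ethanol (EtOH), the vehicle. Set 1 held WT, Y551A and Y551A-Dim with 3 libraries for each line and treatment. Set 2 repeated the WT line, with 2 libraries for each treatment, beside both D647V lines, with 3. The labels name 1 line per receptor form, so the effect of a receptor form and other differences between lines cannot be told apart. They describe batches made with different library kits without assigning libraries to them, and lines were therefore compared only within a set. Whether replicates were separate cultures is not stated, and p-values may then measure only the spread between preparations.

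As background, a newly made glucocorticoid receptor passes through an ordered chaperone cycle before it can bind hormone. Hsp70 with a J-domain protein captures it first, Stip1 (Hop) bridges Hsp70 to the Hsp90 dimer, and Ptges3 (p23) stabilises the closed Hsp90 complex in which an immunophilin, Fkbp5 (FKBP51) or Fkbp4 (FKBP52), sits beside the receptor. Fkbp5 lowers the receptor's affinity for hormone and Fkbp4 favours its movement to the nucleus, and Fkbp5 is itself a classic glucocorticoid-induced gene that closes a negative feedback loop.

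RefSeq promoter windows (GRCm38.p6, 250 bases before to 50 after a transcription start) were found for 7 of the 10 genes. Hsp90aa1, Hsp90ab1 and Hspa8 had none in the table. Windows were searched on both strands for the heat shock element letters GAANNTTC and TTCNNGAA, for the receptor-site letters ACANNNTGT and for the CCAAT box, CCAAT. Of all 32851 mouse windows in the table, 7.86% held GAANNTTC, 8.52% TTCNNGAA, 6.85% ACANNNTGT and 37.4% CCAAT. Among the members, GAANNTTC was found in Fkbp4 and in the most upstream window of Dnaja1, and neither TTCNNGAA nor ACANNNTGT was found in any window. The 3 stretches printed here are the 250 bases before the start of Fkbp5 and Dnaja1, the members that rose with Dex, and of Fkbp4, the paralogue of Fkbp5 that was not called. For Dnaja1 only the most upstream window is printed. Windows 2 and 3 of Dnaja1 hold CCAAT and ATTGG but not GAANNTTC. A window of Stip1 and of Dnajb1 also held CCAAT or ATTGG. Capitals mark matches to GAANNTTC (GAAAGTTC, GAAAATTC) and to CCAAT or its reverse complement ATTGG.
Fkbp5, chr17:28486150-28486399, minus strand: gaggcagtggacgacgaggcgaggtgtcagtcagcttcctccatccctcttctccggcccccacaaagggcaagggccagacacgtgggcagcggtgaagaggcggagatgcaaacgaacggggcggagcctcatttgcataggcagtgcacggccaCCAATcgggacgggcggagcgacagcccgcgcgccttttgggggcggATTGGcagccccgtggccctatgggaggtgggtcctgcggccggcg
Dnaja1, chr4:40722218-40722467, plus strand: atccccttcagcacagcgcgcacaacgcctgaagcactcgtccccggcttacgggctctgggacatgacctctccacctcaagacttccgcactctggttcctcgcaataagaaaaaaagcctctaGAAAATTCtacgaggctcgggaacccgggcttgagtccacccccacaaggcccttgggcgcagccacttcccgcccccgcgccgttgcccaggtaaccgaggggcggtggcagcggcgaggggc
Fkbp4, chr6:128438657-128438906, minus strand: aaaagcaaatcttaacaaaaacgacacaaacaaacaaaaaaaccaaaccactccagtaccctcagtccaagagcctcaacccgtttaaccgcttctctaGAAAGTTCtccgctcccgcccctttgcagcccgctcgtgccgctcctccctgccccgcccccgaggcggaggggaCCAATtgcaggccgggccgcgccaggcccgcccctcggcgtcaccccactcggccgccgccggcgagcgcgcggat

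In GENCODE vM21 on mm10, Fkbp5 spans chromosome 17 from 28399094 to 28517527 on the minus strand, Dnaja1 chromosome 4 from 40722150 to 40737149 on the plus strand and Fkbp4 chromosome 6 from 128429735 to 128438677 on the minus strand. The printed Fkbp5 and Dnaja1 stretches lie inside these spans, because the annotation also lists starts further upstream. The absence of ACANNNTGT says only that these letters are not in the windows searched, and the receptor's distal binding sites were not examined.

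Library totals ran from 44998213 to 70124595 counts in set 1 and from 60277930 to 79776573 in set 2, and each member had between 1986 (Dnajb1) and 178686 (Hsp90ab1) counts in every library. The receptor transcript Nr3c1 was present in every library at 234.4 to 380.0 CPM (counts per library scaled to its normalised size, within each set), which does not separate introduced from endogenous transcripts. The labelled cell type was checked against its markers: the epithelial genes Epcam, Cldn3 and Cldn7 were at 0 in every library, the medians of Krt18, Cdh1, Krt5 and Esrp1 were 0, and the 12 epithelial markers summed to 3.22 to 20.9 CPM, of which Krt14 gave 2.46 to 19.7. The fibroblast markers were split. Vim stood at 3900 to 5360 CPM, Col1a2 at 1630 to 2740, Pdgfrb at 106 to 202 and Pdgfra at 22.2 to 39.3. Col3a1 stood at 6.77 to 14.0 and Col1a1 at 0.927 to 2.44, and Dcn, Lum, Fap and Thy1 did not pass the filter on low counts in either set. Immune markers summed to 6.28 to 16.3 CPM and endothelial markers to 3.57 to 11.4. In these bulk libraries fewer cells of a type and less RNA per cell cannot be told apart.

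Per kilobase of exon, the Hsp90 genes were the highest of the 10 and Fkbp5 the lowest. The length is that of all annotated exons (9468 bp for Fkbp5, 8629 for Dnaja1, 3204 for Dnajb1) and not of the transcripts expressed, so the order depends on it. In plain CPM, Fkbp5 (59.36 to 175.3) lay above Dnajb1 (42.92 to 56.01), and Dnaja1 (138.9 to 213.0) overlapped Bag1 (177.2 to 242.0). Hsp90ab1, the constitutive cytosolic Hsp90, had a median of 743.6 CPM per kb over the 34 libraries (range 638.4 to 890.0), and Hsp90aa1, the stress-inducible form, 272.6 (219.6 to 329.8). Hspa8, the constitutive Hsp70, followed at 160.4, Bag1, a nucleotide exchange factor for Hsp70, at 149.4, Ptges3 at 135.4, Stip1 at 114.2 and Fkbp4 at 94.89. The J-domain proteins Dnaja1 and Dnajb1, which stimulate the Hsp70 ATPase, stood far lower at 18.66 and 15.11, and Fkbp5 at 9.052 (6.269 to 18.51). The order was the same in all 34 libraries for every pair of neighbours except Hspa8 over Bag1 (31 libraries), Bag1 over Ptges3 (32) and Dnajb1 over Fkbp5 (26). Hspa8 and its place are uncertain: the processed pseudogene Gm15459 matches its transcript at 99.7% identity over 1941 bp and was listed at a median of 632 CPM (up to 747) against 635.1 to 757.1 for Hspa8, so reads may be split between them. The processed pseudogene Ptges3-ps, identical to Ptges3 over 480 bp, was listed at 18.4 to 28.4 CPM, and the copies of Hsp90aa1 took 0.26% to 0.489% of its counts.

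**Figure D1:**
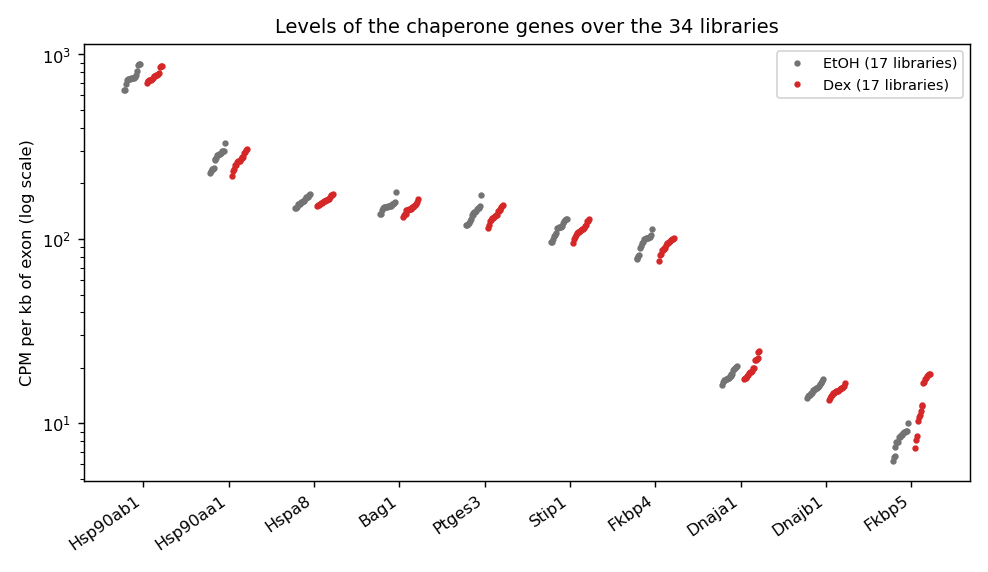
Level of each member in CPM per kb of exon (log axis), 1 point per library, EtOH in grey and Dex in red. Hsp90ab1 (median 743.6) lies far above Fkbp5 (9.052), and only for Fkbp5 does the Dex cloud spread well above the EtOH cloud.

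With the WT receptor, Dex raised 2 of the 10 genes, Fkbp5 and Dnaja1, in each of the 2 sets. A call is an adjusted p below 0.05 in edgeR's quasi-likelihood test, and 3.4% of all tested genes were called in WT of set 1 (2.0% higher) and 1.72% in WT of set 2 (1.35% higher). The same 2 genes were called in Y551A (1.84% of all genes, 1.43% higher), Fkbp5 alone in D647V (0.941%, 0.804% higher), and Fkbp5 with a fall of Bag1 in D647V-Tetra (19.2%, of which 11.3% were higher and 7.89% lower). In Y551A-Dim none of the 10 was called, and none had an unadjusted p below 0.05, against 11.0% of all tested genes. DESeq2 also called none of them there, while 1.09% of all genes were called by edgeR. The median response of the 10 genes lay between -0.119 (D647V-Tetra) and 0.126 (WT of set 2) on the log2 scale, against medians of all genes between -0.013 and 0.002 over the 6 responses.

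**Figure D2:**
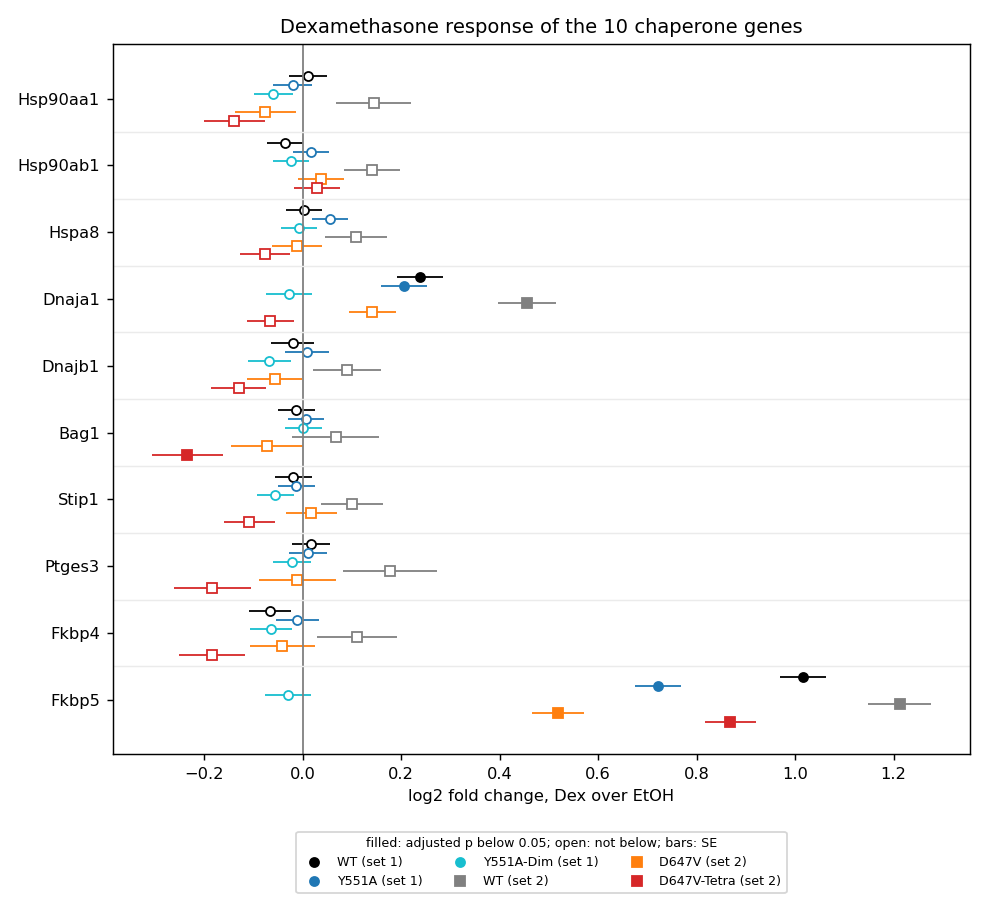
Dex response (log2 fold change, Dex over EtOH, with SE) of the 10 genes in the 6 line and set combinations, circles for set 1 and squares for set 2, filled where the adjusted p is below 0.05. Fkbp5 stands apart at 0.52 to 1.21 in the 5 responses where it was called and at -0.03 in Y551A-Dim, and Dnaja1 is the other member with filled points above 0.

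Fkbp5 separated the treatments in every line but Y551A-Dim. In WT of set 1 it stood at 85.3, 86.1 and 86.3 CPM with EtOH and at 174.7, 175.3 and 171.0 with Dex. The rise was 1.02 ± 0.046 log2 (SE, adjusted p = 4.4e-15), a fold of 2.02. In Y551A the EtOH libraries gave 59.4, 62.2 and 63.2 CPM and the Dex libraries 102.4, 97.2 and 105.1. Every Dex library of Y551A was above its EtOH libraries, and the rise was 0.72 ± 0.047 log2 (adjusted p = 1.66e-11). Of all tested genes, 19.6% did not overlap between treatments in WT of set 1 and 14.0% in Y551A. In Y551A-Dim the values were 75.1, 82.3 and 74.8 CPM with EtOH and 69.9, 77.2 and 80.5 with Dex. These groups overlapped, and the difference was -0.03 ± 0.047 log2 (adjusted p = 0.902).

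In set 2, Fkbp5 of WT stood at 75.6 and 70.3 CPM with EtOH and at 172.4 and 165.5 with Dex, a rise of 1.21 ± 0.065 log2 (adjusted p = 9.72e-10). D647V gave 80.1, 82.4 and 79.8 CPM with EtOH and 117.0, 110.6 and 119.4 with Dex, a rise of 0.52 ± 0.052 (adjusted p = 1.04e-05). D647V-Tetra gave 95.3, 85.1 and 83.8 CPM with EtOH and 157.1, 166.6 and 158.7 with Dex, a rise of 0.87 ± 0.052 (adjusted p = 4.04e-09). No EtOH library reached a Dex library in any of these lines. Of all tested genes, 36.0% did not overlap between treatments in WT of set 2, 13.4% in D647V and 36.2% in D647V-Tetra. All 5 rises of Fkbp5 were also called by DESeq2 and in each fit that left out 1 library.

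Dnaja1, a J-domain partner of Hspa8, rose less. In WT of set 1 it went from 172.2, 173.7 and 175.7 CPM with EtOH to 213.0, 190.8 and 211.1 with Dex, by 0.24 ± 0.047 log2 (adjusted p = 0.00152). In WT of set 2 it went from 143.9 and 138.9 CPM to 191.7 and 196.3, by 0.46 ± 0.059 (adjusted p = 0.000119). The groups did not overlap in either set, as for 19.6% of all tested genes in set 1 and 36.0% in set 2. When the 10 WT libraries were fitted together, where 5.1% of all genes were called and 2.94% were higher, the rise of Dnaja1 was 0.35 ± 0.033 (adjusted p = 1.13e-06) and that of Fkbp5 1.12 ± 0.031 (adjusted p = 3.09e-14).

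In Y551A, Dnaja1 stood at 149.2, 156.9 and 153.0 CPM with EtOH and at 166.0, 173.0 and 190.4 with Dex, a rise of 0.21 ± 0.047 log2 (adjusted p = 0.0126). That call rested on single libraries: it was lost without Dex replicate 3 (0.14, adjusted p = 0.193), without EtOH replicate 1 (0.19, adjusted p = 0.105) and without EtOH replicate 3 (0.21, adjusted p = 0.0569). In Y551A-Dim the values were 160.6, 155.5 and 167.4 CPM with EtOH and 158.7, 152.2 and 163.3 with Dex, overlapping, with a difference of -0.03 ± 0.047 (adjusted p = 0.907). D647V gave 148.9, 149.7 and 152.7 CPM with EtOH and 163.6, 172.6 and 161.5 with Dex. These did not overlap, as for 13.4% of all tested genes there, and the difference of 0.14 ± 0.048 did not pass the test (adjusted p = 0.373). D647V-Tetra gave 170.7, 150.2 and 159.2 CPM with EtOH and 149.6, 152.6 and 156.5 with Dex, a difference of -0.07 ± 0.048 (adjusted p = 0.348). Dnaja1 overlaps Smu1 on the other strand, and the counting used strand. Smu1 differed by 0.03 ± 0.038 with Dex in WT of set 1 (adjusted p = 0.87) and by 0.11 ± 0.076 in WT of set 2 (adjusted p = 0.69).

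**Figure D3:**
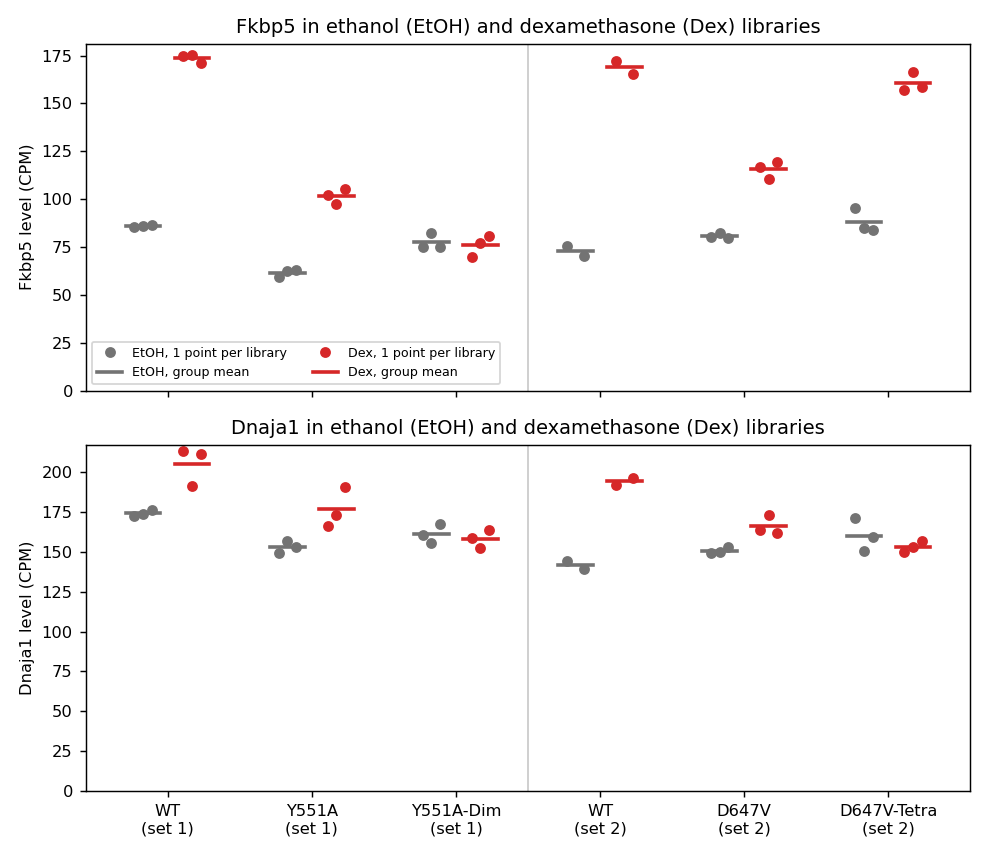
Fkbp5 (top) and Dnaja1 (bottom) in CPM in each library, EtOH in grey and Dex in red, with group means as bars, set 1 left of the line and set 2 right of it. Fkbp5 with Dex reaches 171.0 to 175.3 CPM in WT of set 1 and stays at 69.9 to 80.5 in Y551A-Dim, and Dnaja1 with Dex reaches 190.8 to 213.0 in WT of set 1.

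The Hsp90 genes themselves were not called in any of the 6 Dex responses. In WT of set 1, Hsp90aa1 stood at 1176.1, 1182.6 and 1139.7 CPM with EtOH and at 1166.5, 1149.8 and 1208.3 with Dex, a difference of 0.01 ± 0.039 log2 (adjusted p = 0.976). Hsp90ab1 stood at 2634.1, 2649.7 and 2669.0 CPM with EtOH and at 2551.8, 2609.2 and 2593.6 with Dex, a difference of -0.04 ± 0.036 (adjusted p = 0.833). The Hsp90ab1 groups did not overlap, as for 19.6% of all tested genes there, with every Dex library below the EtOH libraries. The Hsp90ab1 difference did not pass the test. In WT of set 2 both were nominally higher with Dex, Hsp90aa1 by 0.14 ± 0.076 (adjusted p = 0.593) and Hsp90ab1 by 0.14 ± 0.057 (adjusted p = 0.419), without overlap, as for 36.0% of all tested genes there. In D647V-Tetra Hsp90aa1 differed by -0.14 ± 0.062 (adjusted p = 0.122), and it was called without Dex replicate 2 (-0.21, adjusted p = 0.0262).

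Of the Hsp70 machine, Hspa8 had its largest difference in WT of set 2 (0.11 ± 0.063 log2, adjusted p = 0.635) and Dnajb1 had its largest difference in D647V-Tetra (-0.13 ± 0.056, adjusted p = 0.109). The Hspa8 copy Gm15459 was not called in any Dex response either (0.02 ± 0.046 in WT of set 1, adjusted p = 0.938). Stip1, the Hsp70 to Hsp90 adaptor, ranged from -0.11 ± 0.051 (D647V-Tetra, adjusted p = 0.147) to 0.10 ± 0.063 (WT of set 2, adjusted p = 0.669). Ptges3 ranged from -0.18 ± 0.078 (D647V-Tetra, adjusted p = 0.106) to 0.18 ± 0.096 (WT of set 2, adjusted p = 0.604).

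Fkbp4, the counterpart of Fkbp5 on the receptor complex, was not called in any of the 6 responses. It stood at 285.9, 287.5 and 281.6 CPM with EtOH and at 265.9, 278.5 and 272.0 with Dex in WT of set 1, a difference of -0.07 ± 0.043 log2 (adjusted p = 0.662). These groups did not overlap, as for 19.6% of all tested genes there. In WT of set 2 it stood at 250.7 and 219.0 CPM with EtOH and at 242.4 and 264.6 with Dex, overlapping, with a difference of 0.11 ± 0.081 (adjusted p = 0.729). In D647V-Tetra it went from 316.6, 282.5 and 293.3 CPM to 260.2, 274.5 and 251.0, without overlap, as for 36.2% of all tested genes there. The difference of -0.18 ± 0.066 missed the threshold (adjusted p = 0.061). The test called Fkbp4 there without Dex replicate 2 (-0.22, adjusted p = 0.0448) and without EtOH replicate 2 (-0.22, adjusted p = 0.0399), and with DESeq2 (-0.19, adjusted p = 0.0329).

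Bag1 was called in the D647V-Tetra response. It stood at 242.0, 201.0 and 210.2 CPM with EtOH and at 183.7, 194.3 and 177.2 with Dex, by -0.23 ± 0.072 log2 (adjusted p = 0.0332). EtOH replicate 1 is the highest Bag1 library of set 2, and it is also the highest of its group for Hsp90aa1, Hspa8, Dnaja1, Stip1, Ptges3, Fkbp4 and Fkbp5. Without it the difference was -0.16 (adjusted p = 0.144). The call was lost as well without EtOH replicate 3 (-0.26, adjusted p = 0.0562), Dex replicate 1 (-0.23, adjusted p = 0.0952) or Dex replicate 3 (-0.20, adjusted p = 0.14), and with only the groups compared (adjusted p = 0.0564). The difference of this response from that of WT was -0.30 ± 0.11 (adjusted p = 0.119). Mitochondrial transcripts made up 1.37% to 1.38% of counts in the EtOH libraries of D647V-Tetra and 1.66% to 1.87% in its Dex libraries, and the part of this in the result was not tested. Without EtOH replicate 1, 1 member (Fkbp5) was called in the D647V-Tetra response.

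Whether the lines differed in their response was tested as the difference of Dex responses within a set. The response of Fkbp5 was smaller in Y551A-Dim than in WT by 1.04 on the log2 scale (-1.04 ± 0.066, adjusted p = 1.4e-11), and smaller than in Y551A (-0.75 ± 0.067, adjusted p = 2.51e-08). Of all genes, 1.47% were called in the first comparison, 0.886% lower, and 0.558% in the second, 0.458% lower. Y551A against WT gave -0.29 ± 0.066 for Fkbp5 (adjusted p = 0.0654), where 0.18% of all genes were called. None of the 10 passed there with edgeR. An unadjusted p below 0.05 was found for 1 (Fkbp5) and for 6.31% of all genes. DESeq2 called Fkbp5 (-0.29, adjusted p = 0.00537). Fkbp5 also passed without Y551A Dex replicate 3 (-0.33, adjusted p = 0.0363).

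In set 2 the response of Fkbp5 was smaller in D647V than in WT (-0.69 ± 0.082, adjusted p = 0.000526), where 0.188% of all genes were called and 0.182% were lower, and smaller in D647V-Tetra than in WT (-0.34 ± 0.082, adjusted p = 0.0272), where 4.41% were called and 0.713% were lower. It was larger in D647V-Tetra than in D647V (0.35 ± 0.073, adjusted p = 0.0343), where 0.873% of all genes were called and 0.776% were higher. The D647V difference was called in all 10 fits that left out 1 library. The D647V-Tetra difference from WT was called in 5 of 10 such fits, and was lost without D647V-Tetra Dex replicate 1 (-0.33, adjusted p = 0.0722) or 3 (-0.33, adjusted p = 0.069), WT Dex replicate 1 (-0.32, adjusted p = 0.0579) or 2 (-0.38, adjusted p = 0.0939), or WT EtOH replicate 2 (-0.30, adjusted p = 0.194). The difference between D647V-Tetra and D647V was called in 3 of 12 such fits, those without D647V EtOH replicate 3, D647V-Tetra EtOH replicate 1 or D647V-Tetra EtOH replicate 2, and over the 12 it ran from 0.31 to 0.40 with adjusted p from 0.0069 to 0.162. These comparisons share their control libraries.

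The Dnaja1 response differed from that of WT past the threshold in 2 lines: by -0.27 ± 0.066 in Y551A-Dim (adjusted p = 0.0338) and by -0.52 ± 0.075 in D647V-Tetra (adjusted p = 0.00201). The D647V-Tetra difference was called in all 10 fits with 1 library left out. The Y551A-Dim difference was called in 3 of 12, those without WT Dex replicate 2, Y551A-Dim Dex replicate 3 or Y551A-Dim EtOH replicate 2, with values from -0.32 to -0.24 and adjusted p from 0.00661 to 0.143. For Y551A against WT the difference was -0.03 ± 0.066 (adjusted p = 0.975) and for D647V against WT -0.31 ± 0.075 (adjusted p = 0.211), which DESeq2 called (-0.31, adjusted p = 0.0387). In D647V-Tetra, Fkbp5 rose while Dnaja1 did not pass the test, and the WT cells raised both. No other member passed in any of the 6 differences. In D647V-Tetra against WT of set 2, however, 9 of the 10 members had an unadjusted p below 0.05, with negative differences from -0.19 ± 0.081 (Hspa8) to -0.52, and so did 26.1% of all tested genes.

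The ratio of Fkbp5 to Fkbp4, each per kilobase, puts the pair on 1 scale. Its size depends on the annotated exon lengths used, 9468 bp for Fkbp5 and 2795 bp for Fkbp4. With EtOH it was 0.089 ± 0.0013 in WT (SD, n = 3), 0.0806 ± 0.0039 in Y551A and 0.0843 ± 0.0026 in Y551A-Dim of set 1. Every WT library there (0.0881 to 0.0904) lay above those of Y551A (0.0762 to 0.0832) and Y551A-Dim (0.0821 to 0.0871). In set 2 the ratio was 0.0919 ± 0.0041 in WT (SD, n = 2, 0.089 to 0.0947). It was 0.0877 ± 0.0040 in D647V (0.0847 to 0.0922) and 0.0874 ± 0.0026 in D647V-Tetra (0.0844 to 0.0889, n = 3 each). With Dex it was 0.188 ± 0.0048 in WT of set 1, 0.134 ± 0.0092 in Y551A and 0.0866 ± 0.0054 in Y551A-Dim, and 0.197 ± 0.018 in WT of set 2, 0.129 ± 0.0052 in D647V and 0.181 ± 0.0046 in D647V-Tetra. Fkbp4 stood above Fkbp5 per length in every group, with and without hormone.

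Without hormone, the number of the 10 genes whose level differed from WT ran from 2 in D647V to 9 in Y551A. In Y551A, 9 of the 10 genes were lower than in WT of set 1 and 1, Bag1, was not called (0.01 ± 0.037, adjusted p = 0.872), against 23.5% of all tested genes called lower and 42.5% called in either direction. The median of the 10 was -0.277 log2 and that of all genes -0.001. Fkbp5 was lowest (-0.48 ± 0.047, adjusted p = 4.45e-09), from 85.3 to 86.3 CPM in WT to 59.4 to 63.2 in Y551A. Hsp90aa1 stood at 893.4, 943.4 and 923.3 CPM in Y551A against 1139.7 to 1182.6 in WT (-0.34 ± 0.039, adjusted p = 6.34e-08). Stip1 stood at 211.8, 204.0 and 217.5 CPM against 268.3 to 270.2 (-0.35 ± 0.037, adjusted p = 1.75e-08). Fkbp4 was lower by a similar amount (-0.34 ± 0.043), as was Ptges3 (-0.30 ± 0.038), and Hsp90ab1 (-0.25 ± 0.036), Hspa8 (-0.19 ± 0.036), Dnaja1 (-0.18 ± 0.047) and Dnajb1 (-0.14 ± 0.044) less so. The WT and Y551A libraries did not overlap for these 9 genes, as for 54.1% of all tested genes. In the EtOH libraries of Y551A, Malat1 and Neat1 took 0.709% to 0.773% of counts against 0.409% to 0.474% in WT, mitochondrial transcripts 2.17% to 2.44% against 1.78% to 1.87%, and the 10 most abundant genes 10.3% to 10.7% against 8.98% to 9.11%. The part of these shares in the result was not tested. The pseudogene Gm15459 was lower too (-0.15 ± 0.046, adjusted p = 0.0115). The Dnajb1 call held in 2 of 6 fits with 1 library left out.

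In Y551A-Dim, 4 of the 10 were lower than in WT, where 13.3% of all genes were called lower and 23.3% in either direction: Hsp90ab1 (-0.19 ± 0.036, adjusted p = 0.000382), Fkbp5 (-0.15 ± 0.047, adjusted p = 0.0206), Stip1 (-0.13 ± 0.037, adjusted p = 0.00968) and Hspa8 (-0.13 ± 0.036, adjusted p = 0.0111). The Fkbp5 call held in 1 of 6 fits with 1 library left out (-0.18 to -0.13, adjusted p from 0.00952 to 0.102). Against Y551A, 5 were higher, where 14.8% of all genes were called higher and 29.0% in either direction: Fkbp5 (0.33 ± 0.047), Fkbp4 (0.26 ± 0.043), Hsp90aa1 (0.24 ± 0.039), Ptges3 (0.24 ± 0.038) and Stip1 (0.22 ± 0.037). These 5 calls held in every fit with 1 library left out. In the EtOH libraries of Y551A-Dim, too, Malat1 and Neat1 took more of the counts than in WT, at 0.569% to 0.766%. Mitochondrial transcripts took 2.04% to 2.54% there and the 10 most abundant genes 9.78% to 10.8%, again above the WT ranges given for Y551A. The part of these shares in the result was not tested.

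In set 2 the mutants lay on the other side of the WT libraries of their set. The WT reference itself differed between sets. Its mean with EtOH was 1166.1 CPM in set 1 and 944.8 in set 2 for Hsp90aa1, and 2650.9 and 1918.8 for Hsp90ab1. CPM were scaled within each set, and the part of this WT difference in the opposite signs was not tested. In D647V-Tetra, 7 of the 10 genes were higher than in WT, where 9.35% of all genes were called higher and 18.7% in either direction: Fkbp4 and Hsp90aa1 (each 0.34, with SE 0.075 and 0.070), Ptges3 (0.30 ± 0.088), Fkbp5 (0.27 ± 0.059), Stip1 (0.26 ± 0.058), Hsp90ab1 (0.20 ± 0.052) and Dnaja1 (0.18 ± 0.054), with adjusted p from 0.00246 to 0.0273. The median of the 10 was 0.233 and that of all genes -0.007. Hsp90aa1 stood at 1296.5, 1122.2 and 1173.2 CPM in D647V-Tetra and at 948.3 and 941.4 in WT, without overlap, as for 43.4% of all tested genes. WT has only 2 libraries here, and leaving out WT EtOH replicate 2 left 1 call, Hsp90aa1 (adjusted p = 0.0303). Leaving out D647V-Tetra EtOH replicate 1 left 5 calls, with Ptges3 and Dnaja1 lost. In D647V, 2 genes were higher, where 4.58% of all genes were called higher and 7.36% in either direction: Hsp90aa1 (0.24 ± 0.069, adjusted p = 0.0436) and Hsp90ab1 (0.19 ± 0.052, adjusted p = 0.0394). Both calls were lost without D647V EtOH replicate 2 or 3 or either WT EtOH library, where Hsp90aa1 ran up to an adjusted p of 0.219 and Hsp90ab1 up to 0.229. The 10 most abundant genes took 8.21% to 8.71% of counts in D647V with EtOH, against 9.46% to 10.4% in WT. They took 8.85% to 10.1% in D647V-Tetra. Mitochondrial shares of D647V and WT overlapped (1.32% to 1.62% and 1.31% to 1.64%). The part of these shares in the result was not tested. Between D647V-Tetra and D647V, none of the 10 was called by edgeR or DESeq2, where 4.53% of all genes were called. The unadjusted p was below 0.05 for 1 of the 10 and for 21.7% of all genes.

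**Figure D4:**
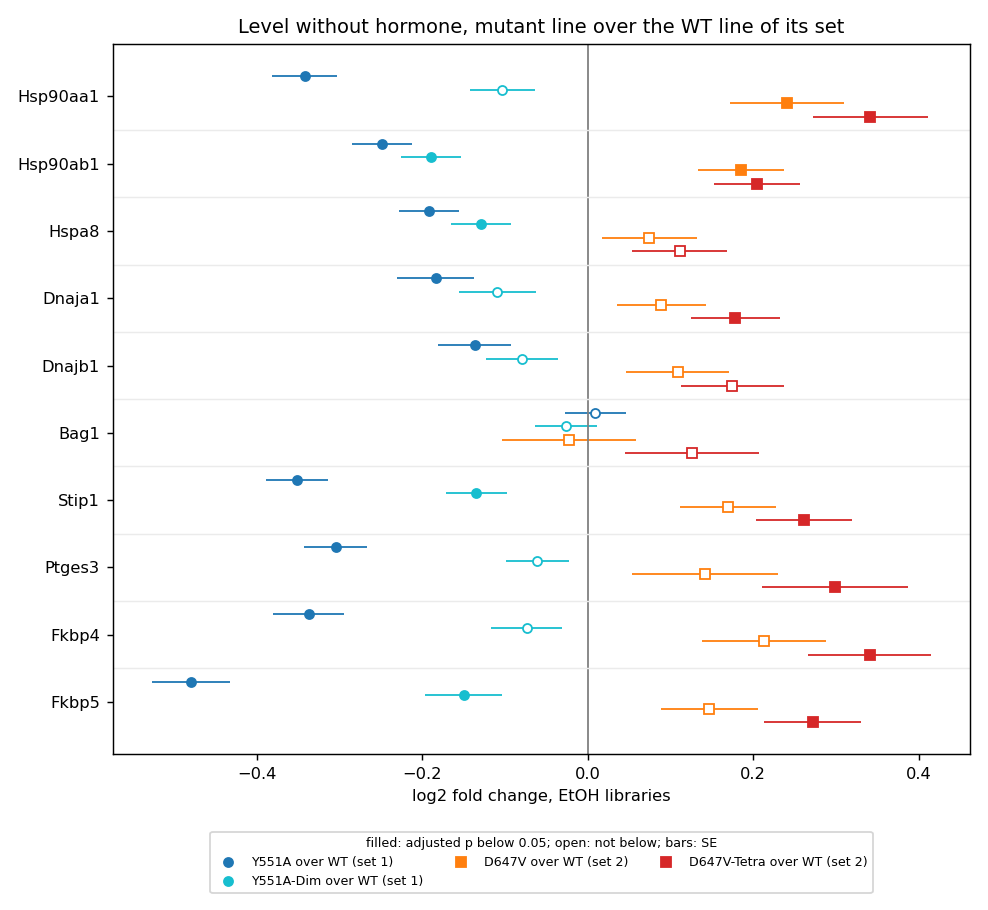
Level with EtOH in each mutant line relative to the WT line of its set (log2 fold change with SE), filled where the adjusted p is below 0.05. Points of set 1 (circles) lie at or below 0 except Bag1 in Y551A at 0.01, and points of set 2 (squares) lie above 0 except Bag1 in D647V at -0.02. Each set has its own WT libraries as reference, and their levels differed between sets.

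The receptor transcript differed in the opposite direction in these comparisons: Nr3c1 was higher than in WT in Y551A (0.30 ± 0.031 log2, adjusted p = 8.15e-09) and Y551A-Dim (0.15 ± 0.031, adjusted p = 0.000902), and lower in D647V (-0.24 ± 0.045, adjusted p = 0.00354) and D647V-Tetra (-0.37 ± 0.045, adjusted p = 4.7e-05). The mean Nr3c1 level with EtOH was 280.0 CPM in WT, 345.2 in Y551A and 310.2 in Y551A-Dim of set 1. In set 2 it was 339.0 in WT, 287.1 in D647V and 262.7 in D647V-Tetra, so the WT reference differed between sets here too. The part of Nr3c1, or of the WT libraries of each set, in the chaperone levels was not tested. Among the other cell type markers, Krt14 was called higher in Y551A and Y551A-Dim and lower in D647V and D647V-Tetra, and Cdh5 was called lower in all 4, with their lists at the low sums given above. Emcn was lower in Y551A and Y551A-Dim, Lyz2 higher in Y551A-Dim and Ptprc lower in D647V-Tetra. The 10 fibroblast markers summed to 6140 to 8130 CPM, of which Vim and Col1a2 gave most and Fap was at 0 in every library. Of their 6 tested genes 1 was called in each line against WT: Pdgfra was higher in Y551A (0.53 ± 0.059 log2, adjusted p = 3.51e-08) and Y551A-Dim (0.23 ± 0.059), Col1a2 higher in D647V (0.42 ± 0.11) and Pdgfrb lower in D647V-Tetra (-0.54 ± 0.11). The part of these markers in the chaperone levels was not tested. The ratio of Hsp90ab1 to Hsp90aa1 transcripts in EtOH was 2.98 ± 0.077 in WT, 3.18 ± 0.11 in Y551A and 2.81 ± 0.17 in Y551A-Dim of set 1 (SD, n = 3), and 2.66 ± 0.0054 in WT (n = 2), 2.56 ± 0.027 in D647V and 2.43 ± 0.20 in D647V-Tetra of set 2.

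In the wider chaperone network, each of 4 lists had between 0 and 2 called genes in every Dex response but that of D647V-Tetra. There, 5 to 8 were called. The lists share genes, among them Dnajb4, Hsph1, Ahsa1 and Ppid, which count in each list that holds them. The list of heat shock factor 1 targets also holds the factor genes Hsf1 and Hsf2. Of 24 other Hsp90 proteins and co-chaperones, 2 rose in WT of set 1: Fnip2, a folliculin-interacting protein that slows the Hsp90 ATPase (0.32 ± 0.037 log2, adjusted p = 7.72e-07), and Cdc37l1, a relative of the kinase adaptor Cdc37 (0.19 ± 0.047, adjusted p = 0.016). Fnip2 also rose in Y551A (0.24 ± 0.037), in WT of set 2 (0.30 ± 0.051) and in D647V-Tetra (0.43 ± 0.041, adjusted p = 2.02e-06). In D647V-Tetra 3 of the 24 rose, Fnip2, Cdc37l1 (0.22 ± 0.053) and Tsc1 (0.24 ± 0.064), and 2 fell, Pih1d1 (-0.19 ± 0.051) and Ahsa1 (-0.16 ± 0.049), against 11.3% of all genes higher and 7.89% lower. The list had no call in Y551A-Dim or in D647V. The unadjusted p was below 0.05 for 2 genes in Y551A-Dim and 0 in D647V, against 11.0% and 7.12% of all genes. The Fnip2 response was smaller in Y551A-Dim than in WT (-0.24 ± 0.053, adjusted p = 0.0112) and larger in D647V-Tetra than in D647V (0.39 ± 0.059, adjusted p = 0.00266). Of 32 other Hsp70, J-domain and exchange factors, none passed in WT of either set by edgeR. The unadjusted p was below 0.05 for 1 in set 1 and 4 in set 2, against 11.0% and 9.31% of all genes. In the joint fit of the 10 WT libraries 1, Dnajb4, rose (0.19 ± 0.040, adjusted p = 0.0067). In D647V-Tetra, 3 of these 32 rose and 5 fell, where 19.2% of all genes were called. There Dnajb4, a J-domain protein, rose by 0.24 ± 0.048 (adjusted p = 0.00302), and Dnaja4 by 1.02 ± 0.24 (adjusted p = 0.0076) from a low level.

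Of the other FKBP and cyclophilin immunophilins, 19 of 22 passed the filter (Fkbp1b, Fkbp6 and Fkbp10 did not), and 1, the endoplasmic reticulum protein Fkbp14, rose in WT of set 1 (0.41 ± 0.11, adjusted p = 0.0219). In D647V-Tetra 6 of the 19 fell, where 7.89% of all genes were called lower, among them Fkbp8 (-0.22 ± 0.060, adjusted p = 0.0194) and the abundant cyclophilin A gene Ppia (-0.23 ± 0.065, adjusted p = 0.0224), and the median of the 19 was -0.182. Of 19 target genes of heat shock factor 1, the factor that drives most chaperone genes under stress, Ier5 was the only call in the 4 responses of WT (both sets), Y551A and D647V. Ier5, an immediate early gene product that acts on heat shock factor 1, fell by -0.33 ± 0.050 (adjusted p = 5.55e-05) in WT of set 1, by -0.27 ± 0.048 in Y551A, by -0.27 ± 0.063 in WT of set 2 and by -0.29 ± 0.051 in D647V. In D647V-Tetra, Ier5 also fell (-0.40 ± 0.051, adjusted p = 5.1e-05), together with 3 others of the list, and 2 rose, where 19.2% of all genes were called.

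The same lists were compared in EtOH. In Y551A against WT, where 23.5% of all genes were called lower and 18.9% higher, 14 of the 24 other Hsp90 co-chaperones were lower and 2 higher, led by Ppid, the cyclophilin of the receptor complex (-0.39 ± 0.047, adjusted p = 1.26e-07), and Ahsa1, an activator of the Hsp90 ATPase (-0.34 ± 0.042, adjusted p = 2.57e-07). Of the immunophilins, 11 were lower and 3 higher, and Ppil1 (-0.75 ± 0.058) and Fkbp14 (1.30 ± 0.099) had the lowest p. Of the Hsp70 group, 12 were lower and 8 higher, with mitochondrial Hspa9 at -0.60 ± 0.035 and Dnajb4 at 0.60 ± 0.049. The heat shock factor targets were split, with 8 lower and 7 higher, and small heat shock protein Hspb1 at 0.60 ± 0.057. In D647V-Tetra against WT of set 2, where 9.35% of all genes were called higher, 5 of the 24 Hsp90 co-chaperones were higher and 0 lower, with Cacybp at 0.55 ± 0.076 (adjusted p = 0.000119) and Ahsa1 at 0.29 ± 0.055 (adjusted p = 0.00129). The other lists were mixed there, where 18.7% of all genes were called in either direction. Called were 12 of the 32 in the Hsp70 group, 7 of the 19 immunophilins and 8 of the 19 heat shock factor targets. Dnajb4 (-0.44 ± 0.053), Bag3 (-0.44 ± 0.095), Hspa1b (-0.60 ± 0.16) and Fkbp15 (-0.16 ± 0.052) were lower, and the other called genes of these lists were higher.

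The genes whose 6 Dex responses lay nearest to those of Fkbp5, by root mean square difference on the log2 scale, were Tob2 (0.128), Pim3 (0.13), Glul (0.149), Zfp36 (0.18) and Klf9 (0.183). Tob2 had responses of 0.99 in WT of set 1, 1.00 in Y551A, -0.01 in Y551A-Dim, 1.08 in WT of set 2, 0.50 in D647V and 0.92 in D647V-Tetra. In Y551A, where Fkbp5 rose by 0.72, the responses were 0.89 for Pim3, 0.83 for Klf9, 0.73 for Glul and 0.50 for Zfp36. Over the 34 libraries, each taken relative to the WT EtOH mean of its set, log2 CPM of Hsp90aa1 had a Pearson r of 0.978 with Stip1 and 0.97 with Fkbp4, and Fkbp4 had 0.977 with Stip1. Genes outside the set ran as close: Rbbp7 (0.99), Nsun2 (0.988) and Erh (0.986) with Hsp90aa1, Sae1 (0.981) and Prmt5 (0.979) with Fkbp4, and Eif4g1 (0.97) and Lrrc59 (0.968) with Hsp90ab1. Fkbp5 and Bag1 had the lowest r among members, at -0.118. These r values describe points that share lines and sets, and they carry no test.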

How the data were processed

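Total RNA of 34 libraries was sequenced as 100 bp paired reads. Per the submitters' processing notes, bcl2fastq 2.17, cutadapt, STAR and featureCounts were used with mm10. The deposited values are raw counts per gene name, per the file headers, made with featureCounts 2.0.3 in reverse-stranded mode on GENCODE vM21, with both mates counted and multiply mapped reads left out. The set of a library follows from its title and header. A spike-in of 5% Drosophila cells was not used.

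Counts were fitted with R 4.3.3 and edgeR 4.0.16 (trimmed mean of M-values scaling, filterByExpr, quasi-likelihood test, a mean per group), set 1 with 12 and set 2 with 10 residual degrees of freedom, and the 10 WT libraries together with 6. P-values were two-sided and adjusted by Benjamini-Hochberg over all genes of a contrast. The SE is the absolute log2 fold change divided by the square root of F. All 10 members are named in every contrast. Of other lists, the 2 called genes with the lowest adjusted p per contrast are named, and other called genes were chosen after their values were seen. Likeness was sought among genes whose mean log2 CPM reached 1, and some of the most alike genes are not reported here. Near-identical copies were sought at 95% identity over 200 bp. Alternatives were 3 other scalings, no filter, DESeq2 1.42.0, the groups compared alone, a replicate block and leaving out each library. The members and lists were chosen with earlier results of these data known. The test was tried on simulated counts. No pair of libraries of a group was identical.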

Additional observations from a re-analysis of the deposited data

Results flagged for a closer look

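Differences between lines in the Dex response passed the test of the difference itself for 2 of the 10 genes. For Fkbp5 these were -1.04 log2 between Y551A-Dim and WT, -0.75 between Y551A-Dim and Y551A, -0.69 between D647V and WT, -0.34 between D647V-Tetra and WT, and 0.35 between D647V-Tetra and D647V. For Dnaja1 they were -0.27 between Y551A-Dim and WT and -0.52 between D647V-Tetra and WT. Over the mutant lines of set 2, the response of Fkbp5 was called in D647V (0.52) and in D647V-Tetra (0.87), and that of Dnaja1 in neither (0.14 and -0.07). Whether the 2 genes differ in this from each other was not tested.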

How the results depend on the processing

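Of 2780 refits of single members, 2652 kept their side of the threshold, 84 lost and 44 gained a call, and 0 changed direction past it. The number of members called in the D647V-Tetra response (2) was 4 with no low-count filter, 1 with only the groups compared and 1 with the replicate block. For the difference of responses, Y551A against WT (0) gave 1 under DESeq2, library totals only, no filter, only the groups compared and upper-quartile scaling. Y551A-Dim against Y551A (1) gave 2 with no filter, D647V against WT (1) gave 2 under DESeq2, and D647V-Tetra against WT (2) gave 4 under DESeq2, 6 with no filter and 1 with only the groups compared. D647V-Tetra against D647V (1) gave 0 under RLE scaling, only the groups compared and the replicate block. In EtOH, Y551A-Dim against WT (4) gave 2 under upper-quartile scaling, D647V against WT (2) gave 0 under RLE, upper-quartile scaling and the replicate block, 4 with library totals only and 1 with only the groups compared, and D647V-Tetra against WT (7) gave 3 with only the groups compared.

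Leaving out each library in turn gave 1 to 2 members in the Y551A response, 1 to 5 in D647V-Tetra and 2 to 4 in the WT of both sets. For differences of responses it gave 0 to 1 for Y551A against WT, 1 to 2 for Y551A-Dim against WT and against Y551A, 1 to 4 for D647V-Tetra against WT and 0 to 1 for D647V-Tetra against D647V. In EtOH it gave 2 to 4 for Y551A-Dim, 0 to 2 for D647V and 1 to 8 for D647V-Tetra, each against WT. Over all genes, such fits gave 223 to 304 calls in the Y551A response (297 in the main fit), 87 to 674 in Y551A-Dim (176) and 1344 to 4023 in D647V-Tetra (3367). For differences of responses they gave 17 to 32 for Y551A against WT (29), 194 to 335 for Y551A-Dim against WT (238), 69 to 222 against Y551A (90) and 49 to 271 for D647V-Tetra against D647V (153). In EtOH they gave 2588 to 3407 for Y551A-Dim against WT (3757). Causes were not tested. Same-numbered libraries had a median correlation of deviations of -5e-04 in set 1 and -0.0382 in set 2, so the replicate block rests on a shared number and not on a pairing in the design. In set 2 the correlation was over 0.1 for 7 of 36 same-numbered pairs and 20 of 70 others. In set 1 it was for 0 of 45 and 2 of 90. Whether libraries of set 2 share a factor across groups was not tested, and the main fit holds none.

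Counts over all genes also moved when 1 library was left out, as given above. Under the other alternatives they moved by more than 1.5 times in these cases. The WT response of set 1 went from 549 to 864 with only the groups compared, that of Y551A-Dim from 176 to 344 under DESeq2, 491 with no filter and 46 with only the groups compared, WT of set 2 from 302 to 583 and D647V from 165 to 380 with no filter, and WT of both sets fell from 843 by a factor of 1.53 with the replicate block. Differences of responses went from 29 to 62 under DESeq2, 109 with no filter and 70 with only the groups compared (Y551A against WT), from 238 to 422 with no filter (Y551A-Dim against WT), from 90 to 153 under DESeq2 and 250 with no filter (Y551A-Dim against Y551A), and from 33 to 64 and 244 (D647V against WT). D647V-Tetra against WT went from 774 to 1774 under DESeq2, 2424 with no filter, 457 with only the groups compared and 431 with the block, and D647V-Tetra against D647V from 153 to 493, 936, and 76 with library totals only and 82 with the block. In EtOH, only the groups compared gave 761 in place of 1290 (D647V), 1876 in place of 3277 (D647V-Tetra) and 235 in place of 795 (D647V-Tetra against D647V, with 1444 under DESeq2, 1956 with no filter and 502 with the block).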
